A study of Mus musculus with 20 samples.

Results

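The 8 genes described here encode AMPA receptors of mouse: the pore-forming subunits Gria1, Gria2, Gria3 and Gria4, and the transmembrane auxiliary subunits Cacng2, Cacng3, Cacng4 and Cacng8. They were taken by symbol from the 31053 features of single-cell count matrices of the basolateral amygdala (BLA), and each symbol had 1 gene identifier. AMPA receptors are the ligand-gated cation channels that carry most fast excitatory transmission in the brain, and each receptor is a tetramer of Gria subunits. Gria2 RNA is edited in nearly all neurons at a codon of the pore, from glutamine to arginine, and receptors that contain the edited subunit pass little calcium, whereas receptors without Gria2 are calcium permeable. The Cacng proteins, also called TARPs (Cacng2 is stargazin), bring the receptors to the membrane and slow their closing, and Cacng8 and Cacng3 are best known from forebrain neurons. Glial precursors also carry AMPA receptors, and oligodendrocyte precursor cells (OPC) receive synapses from axons.

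The stretch of coding sequence around the edited codon is shown because the results below turn on how much of the subunit RNA is Gria2. The sequences were read from the GENCODE transcripts of assembly NCBIM37, are in the genome as printed, run 5′ to 3′ on the coding strand, and have the glutamine codon in capitals.
Gria1: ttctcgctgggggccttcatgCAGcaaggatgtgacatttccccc
Gria2: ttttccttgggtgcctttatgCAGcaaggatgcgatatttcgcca
Gria3: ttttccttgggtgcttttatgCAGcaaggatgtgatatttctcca
Gria4: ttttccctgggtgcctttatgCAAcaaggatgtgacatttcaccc
Each stretch is 45 bases long and lies in an exon: chr11:57056575-57056619 on the plus strand in exon 11 of Gria1, chr3:80510812-80510856 on the minus strand in exon 11 of Gria2, chrX:38963421-38963465 on the plus strand in exon 11 of Gria3, and chr9:4464116-4464160 on the minus strand in exon 12 of Gria4. Of the 45 bases, Gria3 shared 42 with Gria2, Gria4 shared 39 and Gria1 shared 36. Counts per gene do not show whether a transcript was edited, so editing was not measured.

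The libraries came from wild-type male C57BL/6 mice aged 13 weeks, 1 BLA library per mouse. Mice had drunk water with 35 µg/ml corticosterone (CORT) or its vehicle 2-hydroxypropyl cyclodextrin (BCD) for 6 weeks, and were killed 24 h after ketamine at 10 mg/kg (Ket) or saline (Sal), which gave 2 BCD/Sal, 3 BCD/Ket, 2 CORT/Sal and 3 CORT/Ket mice. The comparisons ask in which cells the receptor genes are used and whether either drug changed them. Mice are numbered 1 to 3 within a group as names only.

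Of 28722 barcodes, 8305 had at least 200 genes and at most 12.5% mitochondrial UMIs, and these held 17010282 UMIs (unique molecular identifiers, 1 per captured RNA molecule), between 287013 and 3680877 per library. CORT/Sal mouse 2 stood apart: 97.1% of its barcodes were kept against 16.8% to 31.0% in the others, and 2350 barcodes, 99.8% of them from that library, formed a cluster that could not be named. In every named class but endothelial cells that mouse gave fewer than 10 cells, so CORT/Sal had at most 1 mouse there and could be compared with other groups only in endothelial cells. Of 8280 distinct kept barcode sequences, 21 occurred in 2 or more libraries. Classes are clusters named from marker genes, with the 8 genes and the other AMPA receptor genes left out of the clustering: 1021 excitatory-neuron-like cells led by Slc17a7, Slc17a6 and Neurod2, 293 inhibitory-neuron-like cells led by Gad2, Slc32a1 and Sst, 391 OPC-like, 1293 astrocyte-like, 378 oligodendrocyte-like, 863 microglia-like, 1100 endothelial-like, 266 pericyte-like or mural-like cells and 52 border-macrophage-like cells. They are called by those cell types in what follows. Levels are CPM (UMI counts of a gene scaled to a fixed library total), from all UMIs of a class in a library with at least 10 cells of it, and n is the number of mice. Spreads after ± are SDs over mice, and detection limits below cover counting error only.

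Gria2 was the receptor RNA shared by neurons, OPC and astrocytes. Its level was 3099 ± 690 CPM (SD, n = 9) in inhibitory neurons, 3041 ± 853 (n = 9) in excitatory neurons, 2747 ± 924 (n = 6) in OPC and 2706 ± 370 (n = 6) in astrocytes. The lowest, median and highest mouse stood at 1949, 3080.1 and 4367 CPM in excitatory neurons. In inhibitory neurons they stood at 2067, 3159 and 4009 CPM, in OPC at 1595, 2778 and 3954, and in astrocytes at 2264, 2684 and 3179.6. All 4 ranges overlapped. The neighbouring classes in this order did not pass the test in edgeR's quasi-likelihood fit with mouse as a block: excitatory less inhibitory neurons gave a log2 difference of 0.23 (SE 0.25, adjusted p = 0.665), excitatory neurons less OPC 0.41 (SE 0.29, adjusted p = 0.267) and OPC less astrocytes -0.50 (SE 0.30, adjusted p = 0.211). The fit rescales libraries to their common genes, so a small difference can take another sign than the mean CPM, as the first and the last did here; with RLE in place of TMM factors Gria2 in excitatory less inhibitory neurons was -0.19 (adjusted p = 0.744).

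**Figure D1:**
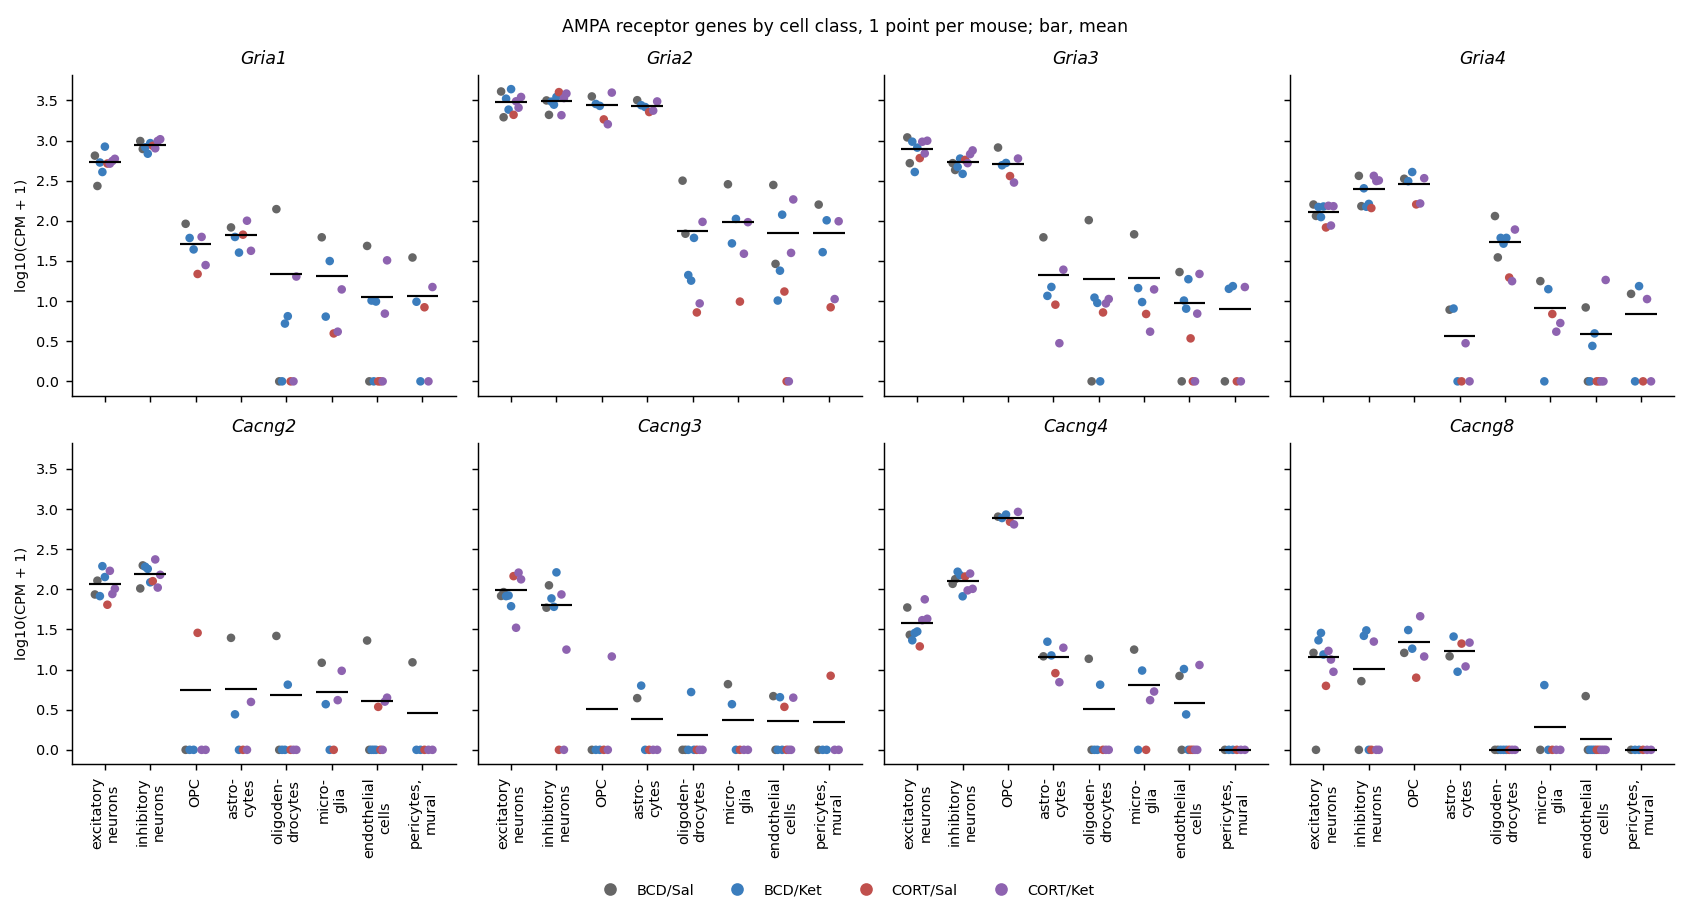
Level of each gene as log10(CPM + 1) on the vertical axis in 8 cell classes; each point is 1 mouse coloured by treatment group, and the bar is the mean over mice. Gria2 sits near the top in neurons, OPC and astrocytes, Cacng4 peaks in OPC at a mean of 780.0 CPM, and Cacng2 and Cacng3 are near 0 outside neurons.

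In the other classes Gria2 was low and varied from mouse to mouse. It was 73.9 ± 103 CPM (n = 8) in oligodendrocytes, 97.0 ± 98.5 (n = 6) in microglia, 69.2 ± 94.6 (n = 10) in endothelial cells, 68.8 ± 59.9 (n = 6) in pericytes and 25.7 ± 20.9 (n = 4) in border macrophages. OPC exceeded oligodendrocytes by 5.26 on the log2 scale (SE 0.40, 38.4-fold, adjusted p = 2.71e-16) and endothelial cells by 4.88 (SE 0.35, 29.4-fold, adjusted p = 1.03e-17). Astrocytes exceeded endothelial cells by 5.38 (SE 0.35, 41.5-fold, adjusted p = 1.64e-19). These contrasts separate whole cell types, and 44.1% of all 10228 genes tested passed the same threshold between OPC and oligodendrocytes, 55.2% between OPC and endothelial cells and 58.8% between astrocytes and endothelial cells.

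Gria1, Gria3 and Gria4 divided the same classes. Gria1 reached 876 ± 116 CPM in inhibitory neurons and 541 ± 156 in excitatory neurons, but 50.6 ± 25.8 in OPC and 64.9 ± 23.2 in astrocytes. Every neuronal value was above every OPC and astrocyte value: the lowest excitatory library had 270.5 CPM and the highest astrocyte library 99.3 CPM. Excitatory neurons exceeded OPC in Gria1 by 3.62 on the log2 scale (SE 0.38, adjusted p = 1.05e-11). Astrocytes still exceeded endothelial cells, which had 10.3 ± 16.3 CPM of Gria1, by 2.63 (SE 0.45, adjusted p = 9.34e-07), and OPC did so by 1.76 (SE 0.64, adjusted p = 0.0134). The OPC call rests on single mice: without BCD/Ket mouse 2 the Gria1 difference was 1.40 (adjusted p = 0.0715), and without CORT/Ket mouse 2 it was 1.46 (adjusted p = 0.077). It also rests on 33 OPC UMIs, which are set against neuronal RNA below.

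Gria3 was high in neurons and OPC and low in astrocytes, unlike Gria2. It measured 784 ± 240 CPM in excitatory neurons (lowest 404, median 815, highest 1093), 547 ± 117 in inhibitory neurons (383, 522 and 753), and 515 ± 184 in OPC (299, 508 and 817). In astrocytes it was 19.9 ± 21.5 CPM, and the means of oligodendrocytes, microglia, endothelial cells, pericytes and border macrophages ran from 0 to 18.5 CPM. OPC exceeded astrocytes in Gria3 by 4.43 (SE 0.27, 21.6-fold, adjusted p = 5.7e-35) and endothelial cells by 5.21 (SE 0.28, adjusted p = 2.61e-40).

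Among the main classes Gria4 had its highest mean in OPC. It stood at 285 ± 101 CPM in OPC (lowest 159, median 322, highest 404), 246 ± 95.4 in inhibitory neurons (143, 253 and 362) and 128 ± 30.3 in excitatory neurons (81.6, 148 and 159). OPC and excitatory neurons did not overlap, though the highest excitatory mouse (158.6 CPM) lay just under the lowest OPC mouse (159.1 CPM), and the difference of excitatory neurons less OPC was -1.06 (SE 0.20, adjusted p = 1.04e-06). Astrocytes had 2.64 ± 3.42 CPM, from 7 UMIs in 2557774, and OPC exceeded them by 5.95 (SE 0.35, 61.6-fold, adjusted p = 1.1e-38). Oligodendrocytes held a middle place at 53.9 ± 32.1 CPM, with Gria4 UMIs in every one of the 8 libraries and a range of 16.7 to 114 CPM around a median of 55.6. They were below OPC by 2.14 on the log2 scale (SE 0.25, 4.39-fold, adjusted p = 7.66e-14) and above endothelial cells, at 2.94 ± 5.57 CPM, by 3.65 (SE 0.45, 12.5-fold, adjusted p = 4.38e-14). Gria4 was the single member of the 7 tested that passed between oligodendrocytes and endothelial cells, where 47.9% of all genes passed, and none passed between microglia and endothelial cells (0 of 7, none at an unadjusted p under 0.05 either), where 46.2% of all genes passed.

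Between excitatory and inhibitory neurons the subunits moved in different directions. The inhibitory class joins interneurons and striatal-type cells, which are given apart below. Gria3 was higher in excitatory neurons by 0.82 (SE 0.16, adjusted p = 4.62e-05), Gria4 lower by 0.58 (log2 difference -0.58, SE 0.19, adjusted p = 0.0211), and Gria1 had a difference of -0.45 that did not pass (SE 0.22, adjusted p = 0.214). With Cacng4, 3 of the 7 members tested passed, in a contrast where 11.9% of all genes did. With RLE in place of TMM factors the median difference over all genes went from 0.21 to -0.09. The Gria3 difference became 0.43 (adjusted p = 0.0871), and Gria1 then passed at -0.88 (adjusted p = 0.00431). Gria4 kept its direction in all 19 alternative settings and missed the threshold in 10 of them, among them without BCD/Sal mouse 1 (-0.48, adjusted p = 0.136), BCD/Ket mouse 1 (0.0667), CORT/Sal mouse 1 (0.0583) or CORT/Ket mouse 1, 2 or 3 (0.126, 0.0833 and 0.1002).

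The share of each subunit among the UMIs of the 4 Gria genes does not depend on that scaling. Gria2 made up 67.6% ± 2.77 of Gria UMIs in excitatory neurons (SD, n = 9), 64.5% ± 5.03 in inhibitory neurons (n = 9), 76.2% ± 2.53 in OPC (n = 6) and 96.9% ± 1.05 in astrocytes (n = 6). In the astrocyte libraries Gria2 ranged from 95.5% to 98.0% of 7000 Gria UMIs, with 2.38% ± 0.994 Gria1, 0.653% ± 0.623 Gria3 and 0.0891% ± 0.112 Gria4. OPC held more Gria4 than Gria1, with 1.51% ± 0.849 Gria1, 14.3% ± 1.70 Gria3 and 7.94% ± 1.63 Gria4. Excitatory neurons had 12.1% ± 2.00 Gria1, 17.4% ± 2.84 Gria3 and 2.91% ± 0.549 Gria4, and inhibitory neurons 18.6% ± 2.32, 11.6% ± 2.08 and 5.25% ± 2.20.

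**Figure D2:**
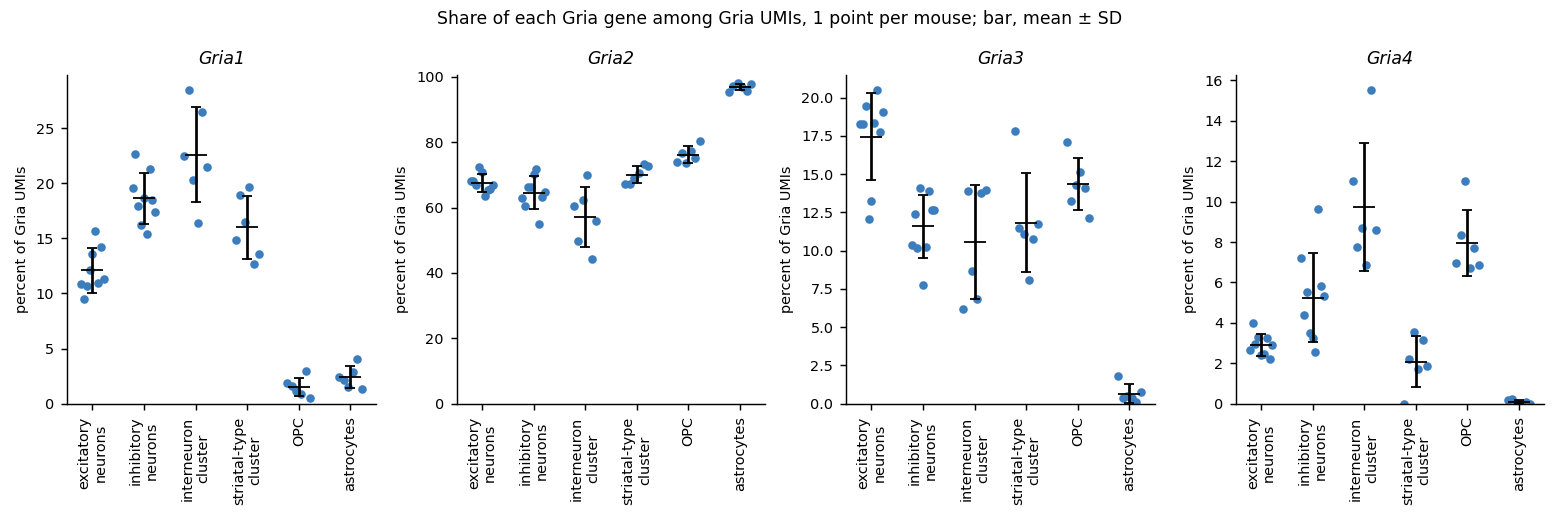
Percent of Gria UMIs (vertical axis, a separate scale per panel, each from 0) that came from each Gria gene in neurons, 2 inhibitory clusters of finer clustering, OPC and astrocytes; points are mice and bars are mean ± SD. The astrocyte libraries sit at 95.5% to 98.0% Gria2 and OPC at 73.5% to 80.4%.

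Paired within mice, 12 such differences were tested with exact two-sided sign-flip permutation tests and adjusted together. From excitatory to inhibitory neurons the Gria1 share differed by -6.54 percentage points (SD 3.96, lower in excitatory neurons in 8 of 9 mice, exact adjusted p = 0.03125), the Gria3 share by 5.84 points (SD 3.24, 8 of 9 mice, exact adjusted p = 0.03125) and the Gria4 share by -2.34 points (SD 2.20, 9 of 9 mice, exact adjusted p = 0.03125). The Gria2 share, at 3.03 points (SD 5.40), did not pass (exact adjusted p = 0.136), but without CORT/Sal mouse 1 it was 4.45 points, higher in excitatory neurons in 8 of 8 mice (exact adjusted p = 0.03125). Between excitatory neurons and OPC the shares of Gria1 (11.4 points), Gria2 (-8.28) and Gria4 (-5.28) differed in 6 of 6 mice, each with an exact adjusted p of 0.0375. The Gria3 share did not (2.11 points, 4 of 6 mice, exact adjusted p = 0.156). Between OPC and astrocytes all 4 shares differed in 6 of 6 mice (exact adjusted p = 0.0375), by -20.6 points for Gria2, 13.7 for Gria3, 7.85 for Gria4 and -0.876 for Gria1. With 6 mice the smallest exact p is 0.03125, so these calls cannot pass without any 1 of those mice. The Gria1 shares of OPC and astrocytes rest on 33 and 170 UMIs, which are set against neuronal RNA below. The part of neuronal RNA in these shares was not tested. Between the neuron classes the Gria1, Gria3 and Gria4 shares all missed the threshold (exact adjusted p = 0.0625) without BCD/Sal mouse 1, BCD/Ket mouse 3, CORT/Ket mouse 2 or CORT/Ket mouse 3, and the Gria1 share also without BCD/Ket mouse 2.

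Among the auxiliary subunits, Cacng4 marked OPC. It reached 780.0 ± 102 CPM there, with a lowest mouse at 642, a median of 787 and a highest mouse at 921, against 126 ± 29.5 in inhibitory neurons, 37.5 ± 18.4 in excitatory neurons and 13.4 ± 5.74 in astrocytes. The highest value in any other main class was 164.5 CPM, in an inhibitory library. OPC exceeded excitatory neurons by 4.26 on the log2 scale (excitatory less OPC -4.26, SE 0.20, 19.1-fold, adjusted p = 3.84e-48), astrocytes by 5.38 (SE 0.23, 41.7-fold, adjusted p = 1.47e-53), oligodendrocytes by 7.94 (SE 0.39, adjusted p = 4.9e-48) and endothelial cells by 7.55 (SE 0.29, adjusted p = 8.22e-61). Excitatory neurons were below inhibitory neurons (-1.48, SE 0.26, adjusted p = 2.72e-06), a difference that was lost at a mitochondrial limit of 5% (0.08, adjusted p = 0.996). Astrocytes exceeded endothelial cells in Cacng4 by 2.17 on the log2 scale, a call that was lost in 1 of 19 alternative settings. The oligodendrocytes held 2 Cacng4 UMIs in 1011031.

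Cacng2 and Cacng3 were neuronal. Cacng2 had 156 ± 46.6 CPM in inhibitory neurons (lowest 101, median 151, highest 234) and 116 ± 44.1 in excitatory neurons (63.2, 101 and 193), and its class means elsewhere ran from 0 to 4.76 CPM. Cacng3 had 96.3 ± 41.5 CPM in excitatory neurons (32.2, 82.7 and 160.3) and 63.1 ± 53.4 in inhibitory neurons, where 2 of 9 libraries held no UMI, and 2.26 CPM or less elsewhere. Neither passed between the neuron classes (Cacng2 -0.27, SE 0.24, adjusted p = 0.561; Cacng3 0.55, SE 0.27, adjusted p = 0.207). Excitatory neurons exceeded OPC by 3.89 for Cacng2 (SE 0.57, adjusted p = 1.81e-09) and by 5.59 for Cacng3 (SE 0.71, adjusted p = 4.38e-14), the latter against a single OPC UMI. All 4 OPC UMIs of Cacng2 came from CORT/Sal mouse 1, and the fitted Cacng2 difference ran from 2.76 at a mitochondrial limit of 5% to 7.12 without that mouse, where OPC held none, so its size is not settled. In that contrast 6 of 7 members passed, beside 43.8% of all genes, and between OPC and astrocytes 3 of 7 members passed, beside 35.6% of all genes. Gria3 made up the sixth in the former (0.74, SE 0.18, adjusted p = 0.000318). It missed the threshold in 2 of 19 alternative settings, among them Leiden resolution 1.2 (0.45, adjusted p = 0.0747).

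Cacng8 had few UMIs in every class and did not pass the filter on low counts in the class fits, so it has values and no test. Whether its RNA was rare or poorly captured was not tested. It gave 33 UMIs in excitatory neurons (13.5 ± 8.37 CPM), 7 in inhibitory neurons (9.17 ± 12.6), 16 in OPC (21.3 ± 13.9) and 43 in astrocytes (16.2 ± 6.56). The ranges overlapped, at 0 to 27.6, 0 to 29.8, 6.92 to 45.1 and 8.39 to 24.8 CPM. All 6 OPC and all 6 astrocyte libraries held at least 1 UMI. Oligodendrocytes had 0 in 1011031 UMIs, which allows up to 2.97 CPM (3 counts over the class), pericytes 0 in 696636, which allows up to 4.31 CPM, and endothelial cells 1 in 2382653.

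Finer clustering at a Leiden resolution of 1.2 split both neuron classes, a choice made after the data were seen. The inhibitory neurons gave 144 cells led by Sst, Vip and Npy, with interneuron markers, and 146 cells led by Penk and Drd2, with striatal projection neuron markers. Excitatory neurons, at a mean of 128 CPM of Gria4, lay between these clusters, and neither cluster was tested against them. Gria4 stood at 389 ± 110 CPM in the interneurons (lowest 247, median 387, highest 527) and 106 ± 65.8 in the striatal-type cells (0, 109 and 191), with no overlap over 6 mice each. The difference was 1.67 on the log2 scale (SE 0.41, adjusted p = 0.00468), and 8.21% of the 5033 genes tested passed in this contrast. Cacng4 was lower in interneurons, at 69.4 ± 12.1 against 186 ± 68.8 CPM (-1.50, SE 0.44, adjusted p = 0.0207), and so was Gria2, at 2378 ± 761 against 3665 ± 822 CPM (-0.68, SE 0.20, adjusted p = 0.0212). The Gria2 ranges, 1353 to 3191 and 2457 to 5032 CPM, overlapped, and the Gria2 call was lost in 8 of 13 alternative settings (adjusted p from 0.0565 to 0.128), among them without BCD/Sal mouse 2, BCD/Ket mouse 1 or 3, CORT/Sal mouse 1 or CORT/Ket mouse 1 or 3, and the Cacng4 call in 3 of 12, among them the loss of BCD/Sal mouse 1 (-1.36, adjusted p = 0.0919), BCD/Sal mouse 2 (-1.56, adjusted p = 0.124) or BCD/Ket mouse 1 (-1.42, adjusted p = 0.0649). The Gria4 call was kept in all 13. As shares of Gria UMIs, Gria2 and Gria4 made up 57.1% ± 9.16 and 9.74% ± 3.15 in interneurons and 70.1% ± 2.66 and 2.09% ± 1.25 in striatal-type cells.

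The excitatory neurons gave 780 cells led by Cpne7 and Slit3 and 245 cells led by Cartpt, Slc17a6 and Reln. Both held more Slc17a7 than Slc17a6 RNA. The Cpne7-led cluster had 1 excitatory marker, Neurod2, too few for a name. It is called excitatory because 99.5% of it lay in the excitatory class, and 1 mouse gave 47.8% of it. Median UMIs relative to the libraries were 1.12 in the Cpne7-led and 3.11 in the Slc17a6-led cells. The part of depth in the differences between these clusters was not tested. Gria1 was 785 ± 143 CPM in the Cpne7-led cells (lowest 600.2, median 739, highest 1026) and 415 ± 81.4 in the Slc17a6-led cells (273, 432 and 546), and the 7 libraries of each did not overlap. The difference of Slc17a6-led less Cpne7-led cells was -0.88 (SE 0.22, adjusted p = 0.00151), in a contrast where 37.3% of genes passed. Cacng3 went the other way, at 126 ± 61.5 against 45.1 ± 34.5 CPM (1.70, SE 0.42, adjusted p = 0.00142), with overlapping ranges of 27.3 to 201 and 0 to 100.02 CPM. Gria2, at 2659 ± 706 against 4039 ± 560.5 CPM, differed by -0.50 (SE 0.19, adjusted p = 0.0378), a call that was lost with RLE factors (-0.40, adjusted p = 0.104), with no filter on low counts (0.0566) and without BCD/Ket mouse 1 (0.109), CORT/Sal mouse 1 (0.124) or CORT/Ket mouse 2 (0.0586). Cells of BCD/Sal mouse 1 made up 40.8% of the excitatory class, so class levels are means over libraries and not over cells. The multiples of the excitatory ratio and the percentages of cells without thinning, both below, are instead summed over libraries.

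Droplets also take up RNA released by broken neurons, so each member was set against 11 neuronal genes (Snap25, Syt1, Nrgn, Stmn2, Rbfox3, Slc17a7, Camk2a, Gad1, Gad2, Camk2n1 and Ddn). RNA from a single source would keep its genes in 1 ratio in every class. The list summed to 10104 ± 2067 CPM in excitatory neurons and 6486 ± 1412 in inhibitory neurons, but 793 ± 284 in OPC, 632 ± 163 in astrocytes, 336 ± 227 in oligodendrocytes, 637 ± 237 in microglia and 525 ± 264 in endothelial cells. Per 100 UMIs of the list, Gria2 gave 32.4 ± 14.7 UMIs in excitatory and 51.2 ± 18.9 in inhibitory neurons, 12.9 ± 8.31 in microglia, 17.0 ± 15.6 in endothelial cells and 15.2 ± 13.8 in oligodendrocytes. In astrocytes it gave 439 ± 59.5, with a lowest mouse at 335, and in OPC 354 ± 82.1, with a lowest mouse at 289, above the highest neuronal mouse at 72.6.

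**Figure D3:**
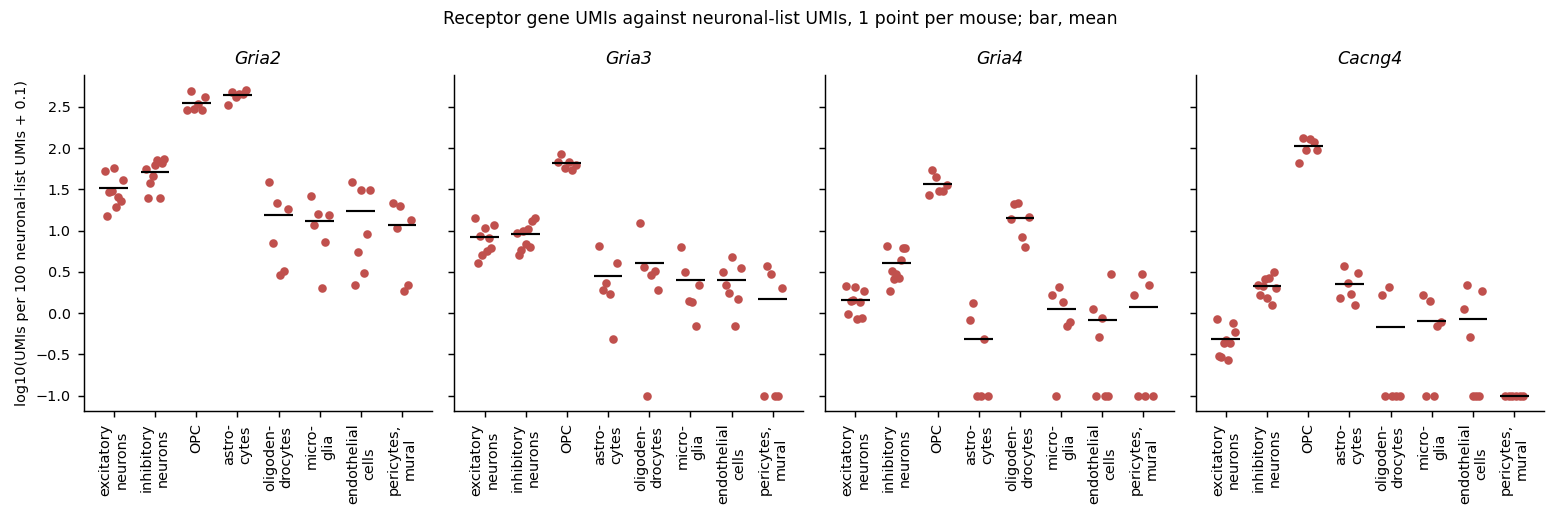
UMIs of Gria2, Gria3, Gria4 and Cacng4 per 100 UMIs of the neuronal list, as log10(value + 0.1) on the vertical axis, by class; points are mice with at least 20 list UMIs and bars are means. Gria2 is raised in OPC and astrocytes, Gria3 and Cacng4 in OPC, and Gria4 in OPC and oligodendrocytes.

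The same ratio separated the other members. Cacng4 gave 106 ± 25.8 UMIs per 100 list UMIs in OPC and 0.389 ± 0.205 in excitatory neurons, and the 511 Cacng4 UMIs of OPC were 246 times the number that the excitatory ratio would give. For such multiples UMIs were summed over libraries, so they have no spread over mice. BCD/Sal mouse 1 gave 6664 of the 26402 list UMIs of excitatory neurons. Inhibitory neurons themselves stood at 4.03 times the excitatory ratio for Cacng4, 2.06 times for Gria4 and 1.84 times for Gria1, so multiples of that size lie within the range of neurons. Gria3 gave 65.5 ± 10.6 in OPC against 8.15 ± 3.38 in excitatory neurons. Gria1 gave 6.75 ± 3.53 in OPC against 5.75 ± 2.61 in excitatory neurons, and its 33 OPC UMIs stood at 1.09 times the excitatory ratio. In oligodendrocytes Gria4 gave 14.3 ± 6.31 against 1.34 ± 0.494 in excitatory neurons, so that its 52 UMIs stood at 11.2 times the excitatory ratio, while Gria1, Gria2 and Gria3 there stood at 0.761, 0.494 and 0.476 times it. Cacng8 in OPC stood at 26.1 times the excitatory ratio (16 UMIs against 0.612). In astrocytes Cacng8 stood at 22.2 times that ratio (43 UMIs against 1.94), Cacng4 at 5.16 times (34 UMIs against 6.58) and Gria1 at 1.77 times. Gria3, Gria4, Cacng2 and Cacng3 there stood at 0.294, 0.310, 0.523 and 0.248 times. In microglia and endothelial cells no member passed 1.68 times the excitatory ratio. The barcodes removed for their mitochondrial share had lower ratios than excitatory neurons for each member when summed over libraries. As a mean over mice Cacng4 was higher in them, at 0.459 ± 0.267 against 0.389 ± 0.205. Summed over libraries, the removed barcodes held 8.30 Gria2 and 0.402 Gria4 UMIs per 100 list UMIs, against 35.5 and 1.45 in excitatory neurons. Microglia held 13.3 and 1.02 and endothelial cells 18.2 and 0.814, so multiples depend on the reference chosen. Which neurons released the RNA is not known, and the part of free RNA in any level was not tested.

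Counted per cell, with each cell thinned to 1000 UMIs and shallower cells left out, Gria2 again divided the classes. A Gria2 UMI was found in 94.2% ± 4.54 of excitatory neurons (means over mice), 89.7% ± 7.99 of inhibitory neurons, 86.3% ± 7.25 of OPC and 85.0% ± 3.68 of astrocytes, against 7.05% ± 7.59 of endothelial cells and 6.23% ± 6.28 of microglia. Without thinning, 92.0% of astrocytes and 11.3% of endothelial cells had one, at median depths of 1617 and 1370.0 UMIs. Thinning left out 333 of 1293 astrocytes and 386 of 1100 endothelial cells. Cacng4 was found in 56.6% ± 6.25 of thinned OPC and 0.129% ± 0.341 of thinned endothelial cells (64.7% and 0.545% without thinning), and 155 of 391 OPC were left out. Gria4 was found in 25.8% ± 7.62 of OPC and 4.82% ± 3.94 of oligodendrocytes, against 0.393% ± 0.726 of endothelial cells.

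Outside the named classes, the 20364 barcodes removed for their mitochondrial share held 17352 Gria2, 5119 Gria1, 4825 Gria3, 1664 Cacng2, 841 Gria4, 829 Cacng4, 778 Cacng3 and 104 Cacng8 UMIs in 28442827 UMIs. Gria2 in them ranged from 307 to 1236 CPM over libraries with a median of 772, below its level in kept neurons. The unnamed cluster of CORT/Sal mouse 2 had 1919.5 CPM of Gria2, 429.6 of Gria1, 338 of Gria3, 93.3 of Cacng2 and 69.0 of Cacng3. A second unnamed cluster of 69 barcodes, led by Kirrel2, had 169 Gria2 UMIs (4604 CPM) and 2 of Gria1. The 12 committed-OPC-like cells, led by Enpp6 and Bmp4, had 167 Gria2 UMIs (2319.8 CPM), 97.2 CPM of Gria4 and 55.6 of Cacng4.

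No member passed the test between treatment groups in neurons. In excitatory neurons the BCD/Sal mice had 4083 and 1949 CPM of Gria2 and the BCD/Ket mice 3322, 2427 and 4367. The CORT/Sal mouse had 2091 CPM, and the CORT/Ket mice 3080.1, 2564 and 3488. The 2 BCD/Sal mice stood further apart than any of the group means. For Gria1 the BCD/Sal mice had 647 and 270.5 CPM, the BCD/Ket mice 531, 404 and 838, the CORT/Sal mouse 516, and the CORT/Ket mice 515, 555 and 591. For Gria2 the CORT/Sal mouse lay below every ketamine-treated mouse and inside the range of the BCD/Sal mice, and for Gria1 it lay inside the range of each other group. The CORT/Sal mouse gave 58 excitatory cells with 379722 UMIs, and BCD/Sal mouse 2 gave 73 with 306836. BCD/Sal mouse 1, with more Gria2, gave 417 cells with 857436 UMIs, so fewer UMIs per cell. Gria2 levels also differed between the excitatory clusters given above. The parts of depth and cluster mix in the treatment values were not tested. BCD/Ket less BCD/Sal gave 0.09 for Gria2 (SE 0.46), 0.30 for Gria1 (SE 0.45), -0.21 for Gria3 (SE 0.46) and -0.08 for Gria4 (SE 0.43). CORT/Ket less BCD/Ket gave -0.14, -0.11, 0.28 and -0.02 for the same genes, with SE from 0.41 to 0.42. The difference farthest from 0 in each contrast was that of Cacng4, at -0.80 (SE 0.55) and 0.84 (SE 0.56). Of the 7 members, 0 had an unadjusted p under 0.05 in either contrast. Of all 8713 genes 0 passed (0%) with edgeR, and 92 and 191 had an unadjusted p under 0.05. DESeq2 was run without the filter on low counts, so on a larger set of genes. It also called 0, with 35 and 113 at an unadjusted p under 0.05. In inhibitory neurons the 5 members tested ran from -0.42 to 0.18 and from 0.01 to 0.82 in the same contrasts, and none had an unadjusted p under 0.05. These pooled differences do not separate the inhibitory clusters, whose mix differed between mice. BCD/Sal mouse 1 gave 39 interneurons and 12 striatal-type cells, and BCD/Sal mouse 2 gave 24 and 49. In inhibitory neurons too 0 of 2677 genes passed with edgeR (24 and 19 at an unadjusted p under 0.05), and 0 of the larger set with DESeq2 (20 and 37).

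**Figure D4:**
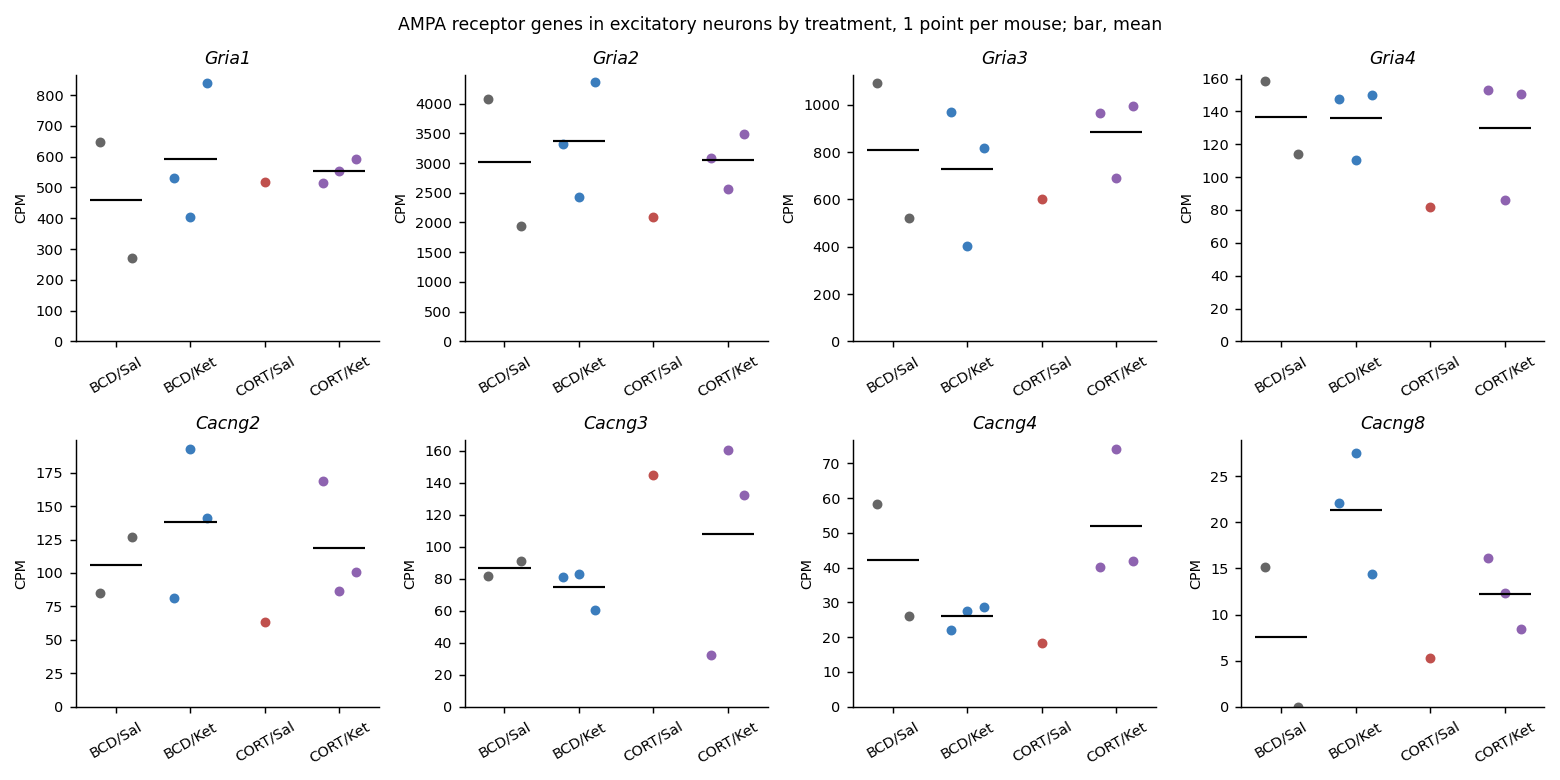
Level of each gene (CPM, vertical axis from 0) in excitatory neurons of each mouse by treatment group; bars are group means, and CORT/Sal has 1 mouse. The 2 BCD/Sal mice lie far apart for Gria2, at 4083 and 1949 CPM, and their range takes in the CORT/Sal mouse at 2091 CPM, which is below all BCD/Ket and CORT/Ket mice. The BCD/Sal and CORT/Sal mice also differed in UMIs per excitatory cell.

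In glia the members were tested where at least 2 mice of each group had cells. CORT/Ket less BCD/Ket passed for no member in OPC (-0.59 to -0.02 over 4 members), astrocytes (-0.33 to 0.46 over 4), microglia (-1.08 to -0.26 over 3), oligodendrocytes (-0.30 to 1.07 over 3) or pericytes (Gria2 -0.38), and none had an unadjusted p under 0.05. The shares of all genes that passed there were 0%, 0%, 0%, 0.0286% and 0.19%. In OPC, astrocytes, microglia and pericytes only CORT/Ket mice 2 and 3 and BCD/Ket mice 2 and 3 entered this contrast.

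A single member passed in a treatment contrast: Gria2 in oligodendrocytes, at -2.72 for BCD/Ket less BCD/Sal (SE 0.61, adjusted p = 0.0210; it was the only gene of 3493 called, 0.0286%). It rested on few UMIs, most of them in 1 BCD/Sal mouse. The BCD/Sal mice had 315 CPM (25 UMIs) and 68.0 CPM (2 UMIs), and the BCD/Ket mice 20.1, 17.0 and 60.3 CPM (2, 4 and 11 UMIs). Without BCD/Sal mouse 1 the Gria2 difference was -0.93 (SE 1.46, adjusted p = 0.886), which sets 1 BCD/Sal mouse with 2 UMIs, assumed to vary like the other groups, against the BCD/Ket mice. It was also lost without BCD/Ket mouse 2 (adjusted p = 0.257), CORT/Sal mouse 1 (0.343) or CORT/Ket mouse 3 (0.114), without the barcodes of highest doublet score (0.237) and with DESeq2 (adjusted p = 1). The neuronal list moved with it: it summed to 820.0 CPM in the oligodendrocytes of BCD/Sal mouse 1, against 136 in BCD/Sal mouse 2 and 191, 242 and 279 in the BCD/Ket mice. The part of neuronal RNA in the Gria2 difference was not tested. Gria1 moved the same way in oligodendrocytes without passing (-4.20, SE 1.58, adjusted p = 0.935).

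Endothelial cells allowed the contrasts with CORT/Sal, and Gria2 was the only member with enough counts to test. The BCD/Sal mice had 279 and 28.1 CPM and the BCD/Ket mice 9.15, 22.9 and 118. The CORT/Sal mice had 12.2 and 0 CPM, and the CORT/Ket mice 0, 38.8 and 184. The second CORT/Sal value came from 11 cells with 3411 UMIs in all. CORT/Sal less BCD/Sal gave -4.04 (SE 1.57, adjusted p = 0.716), CORT/Ket less CORT/Sal 2.98 (SE 1.58, adjusted p = 1), BCD/Ket less BCD/Sal -1.90 (SE 0.94, adjusted p = 0.999) and CORT/Ket less BCD/Ket 0.84 (SE 0.91, adjusted p = 1). The difference between the ketamine effects under CORT and under BCD was 4.88 (SE 1.82, adjusted p = 0.996). Of all genes 0.0929% passed for CORT/Sal less BCD/Sal and for CORT/Ket less BCD/Ket, and 0% in the others. The Gria2 calls changed when single mice were left out: CORT/Sal less BCD/Sal passed without BCD/Sal mouse 2 (adjusted p = 0.0282, with 1 BCD/Sal mouse that is assumed to vary like the other groups), BCD/Ket mouse 3 (0.000564), CORT/Ket mouse 2 (0.0140) or CORT/Ket mouse 3 (0.0013). Without BCD/Ket mouse 3, BCD/Ket less BCD/Sal (-3.26, adjusted p = 0.000159) and the difference of the ketamine effects (6.24, adjusted p = 9.97e-08) passed for Gria2 too, the latter also without CORT/Ket mouse 2 (5.33, adjusted p = 0.00198). The neuronal list in endothelial cells was 729 and 224 CPM in BCD/Sal and 411 and 1173 in CORT/Sal, so CORT/Sal mouse 2, with no Gria2 UMI, had the highest list level, on 4 list UMIs. The part of neuronal RNA in these differences was not tested.

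**Figure D5:**
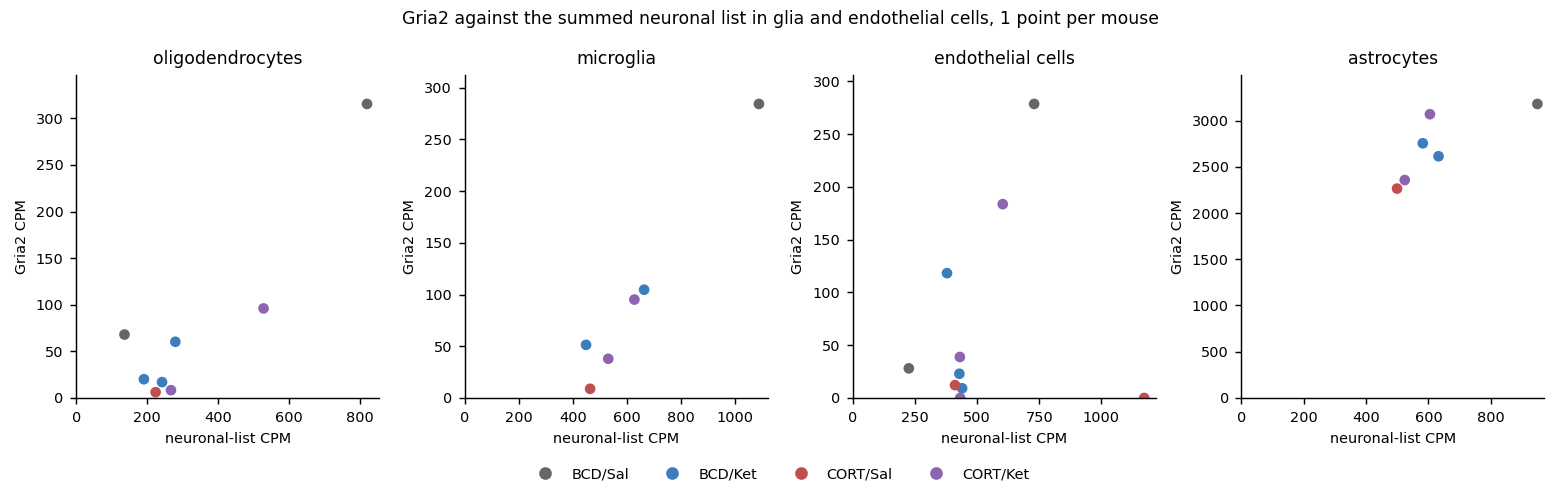
Gria2 (vertical axis, CPM) against the summed neuronal list (horizontal axis, CPM) in 4 classes, 1 point per mouse, coloured by group. BCD/Sal mouse 1 is the highest in both measures in oligodendrocytes (315 and 820.0 CPM), microglia (284 and 1087 CPM) and astrocytes (3179.6 and 949.8 CPM), and each panel has its own scale.

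The other genes of AMPA receptor biology were counted in 3 lists. Of the 6 auxiliary and related genes (Cacng5, Cacng7, Cnih2, Cnih3, Gsg1l and Prrt1), 4 were higher and 1 lower in OPC than in astrocytes, where 35.6% of all genes passed in either direction. Cacng5 and Cacng7, atypical members of the TARP family, were among the higher ones: Cacng7 had 69.2 ± 28.0 CPM in OPC and 16.5 ± 5.47 in astrocytes (1.61, SE 0.35, adjusted p = 3.53e-05), and Cacng5 had 20.1 ± 12.8 CPM in OPC and a single UMI in astrocytes (4.08, SE 1.00, adjusted p = 2.85e-06). Prrt1, a protein found with AMPA receptors, was the lower one, at 55.8 ± 33.1 against 73.2 ± 24.4 CPM (-0.91, SE 0.30, adjusted p = 0.00812). Between excitatory neurons and OPC, where 43.8% of all genes passed, 3 of the 6 were higher in neurons, among them Cnih3, a cornichon that slows the receptor (4.19, SE 0.50, adjusted p = 4.37e-14), and 2 were lower, Cacng7 and Cacng5. Excitatory neurons exceeded inhibitory neurons in Cnih3 (1.40, SE 0.27, adjusted p = 2.46e-05) and were below them in Cacng5 (-2.66, SE 0.45, adjusted p = 3.79e-07).

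Of the 6 biogenesis genes, 3 were higher in excitatory neurons than in OPC and 3 higher in OPC than in astrocytes, and none was lower in either, shares near the 43.8% and 35.6% of all genes that passed there. They included Frrs1l, which helps assemble the receptor (1.72, SE 0.21, adjusted p = 1.3e-12, and 2.99, SE 0.33, adjusted p = 2.31e-15), and Adarb1, the enzyme that edits the Gria2 pore codon (1.25, SE 0.28, adjusted p = 5.57e-05, and 2.05, SE 0.41, adjusted p = 3.93e-06). Adarb1 had 132 ± 30.2 CPM in excitatory neurons, 138 ± 65.7 in inhibitory neurons, 64.2 ± 37.5 in OPC and 10.8 ± 6.60 in astrocytes, and was below its endothelial level in astrocytes (-0.88, SE 0.38, adjusted p = 0.0302). Of 12 scaffold and trafficking genes, 11 were higher in excitatory neurons than in OPC and 0 lower, and 5 were higher in OPC than in astrocytes and 0 lower, beside the same 43.8% and 35.6% of all genes. The medians of the 3 lists between excitatory neurons and OPC were 1.205, 0.44 and 1.69, beside 0.74 for the 7 members and 0.13 for all genes. In the treatment contrasts no gene of the lists passed.

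The genes whose class means followed each member most closely over the 9 classes, by Pearson's r of log2(CPM + 10) among 11065 genes or, for Cacng8, 11066, are given as a description, since the classes share libraries and differ in their share of neuronal RNA. They were Gpm6a and Pcdh7 for Gria2 (r = 0.996 and 0.995), Gm38393 and Wdr17 for Gria1 (both 0.990), Tceal5 for Gria3 (0.993), and Nalcn and Pxylp1 for Gria4 (0.986 and 0.982). For the auxiliary subunits they were Dlgap2 and Cpne5 for Cacng2 (both 0.996), Slc6a7 and Kcnip4 for Cacng3 (both 0.995), Olfm2 and Lnx1 for Cacng4 (0.993 and 0.984), and Ncan and Kcnk2 for Cacng8 (0.994 and 0.989).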

How the data were processed

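UMI counts per gene and barcode were used as the authors deposited them, 1 matrix per mouse; the file headers name Cell Ranger 3.0.2, and the submitters' processing notes name mm9 and Seurat 3.1.1. Whether the chemistry read 3′ or 5′ ends is not given in the sources used here. The prefrontal libraries of the series are not used here.

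Barcodes with at least 200 genes and at most 12.5% mitochondrial UMIs were scaled to 10000 UMIs and clustered (scanpy 1.11.5, 2000 variable genes, 30 components, 20 neighbours, Leiden resolution 0.8). Naming a cluster took 3 or more markers of a class within its top 50 genes. A cluster of 152 barcodes with choroid plexus markers also held 512 CPM of Slc17a7 and was left out, a choice made after the data were seen. The 8305 kept barcodes held 287013 to 3680877 UMIs per library. Doublets were not removed; an alternative leaves out the highest Scrublet scores. UMIs were summed per mouse and class (at least 10 barcodes) and tested with edgeR 4.0.16 (TMM, filterByExpr, robust quasi-likelihood), with Benjamini-Hochberg adjustment over all genes of a contrast at 0.05. Class fits had mouse as a block, since the classes of 1 library come from 1 mouse; treatment fits held all 4 groups of a class. Alternatives were RLE factors, no filter, other limits on barcodes, another resolution, DESeq2 1.42.0 (treatment) and leaving out each mouse. The log2 differences carry edgeR's default prior count, and their SE is the size of the unshrunk difference over the root of the F statistic. The scripts were tested on counts simulated at the depth of these profiles, with 200 genes changed 4-fold, genes of low counts among them. The simulated treatment contrasts recovered from 14% of these changes (inhibitory neurons) to 38% (excitatory neurons), so most changes of that size were missed. Named genes are the 8 members, 3 lists of other AMPA receptor genes, the neuronal list, markers and the 2 genes most like each member, of which 1 is not reported here. The members and lists were chosen with earlier results of these data known. Pick1, with 2 identifiers, was left out of the counts. Labels name no batch. Each mouse gave 1 BLA library, so the treatment tests measure the spread between mice. The class fits, with mouse as a block, and the paired share tests measure how class differences vary from mouse to mouse.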

Additional observations from a re-analysis of the deposited data

Results flagged for a closer look

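Among 43 class levels with at least 10 UMIs per library on average, 2 held a mouse far from the others by Dixon's test, which chance does in about 1 of 20 groups and so in about as many as were found. Gria2 in microglia was 284 CPM in BCD/Sal mouse 1 (51 UMIs), with the next mouse at 104.7 CPM and the lowest at 8.86. Gria3 in interneurons was 732 CPM in CORT/Ket mouse 3 (26 UMIs), with the next mouse at 443 CPM and the lowest at 295. In the microglia the neuronal list of BCD/Sal mouse 1 was also the highest, at 1087 CPM against 448 to 663 CPM in the other mice. The part of neuronal RNA in the Gria2 value was not tested.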

How the results depend on the processing

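Of 1230 alternative values of 134 results, 1101 were scored as the same. For a test this means the same direction and side of the threshold. For a count of members it means a similar count, and for a level or ratio a shift below its SD over mice. Of the share tests, 26 values were the same and 10 missed the threshold in changed settings. With single mice left out, 64 were the same, 55 missed it and 1 newly passed. Among all tests 1 turned: Cacng4 between excitatory and inhibitory neurons at a mitochondrial limit of 5% (0.082). Members called in that contrast were 3, but 1 at that limit and 5 with Leiden resolution 1.2 or with the tested genes kept in the clustering, where the Cpne7-led cells lost their name. OPC against astrocytes went from 3 to 5 without the filter on low counts. With no replicate block, interneurons against striatal-type cells went from 3 members to 1 (like all fits of these clusters, added after the data were seen), and Gria4 between excitatory and inhibitory neurons missed the threshold (-0.60, adjusted p = 0.112). The Gria2 call in oligodendrocytes went from 1 to 0 without the highest Scrublet scores and with DESeq2. Gria2 in endothelial cells, with 0 calls, gave 1 for CORT/Sal less BCD/Sal without the highest Scrublet scores (-4.01, adjusted p = 0.0297), 1 for CORT/Ket less CORT/Sal with only those groups fitted (adjusted p = 0.0474) and 1 for the difference of the ketamine effects without the highest Scrublet scores (4.92, adjusted p = 0.0390); without the filter Gria1 gave 1 there. No paired analysis of treatment was possible because each mouse is in 1 treatment group.

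At a mitochondrial limit of 5% no share test passed after adjustment: with 3 mice in place of 9, excitatory less inhibitory neurons gave -4.05 points for Gria1, 5.74 for Gria3 and -3.36 for Gria4 (exact adjusted p = 0.3), and with 6 mice as before, excitatory neurons less OPC gave 10.8, -8.67 and -6.00 for Gria1, Gria2 and Gria4, and OPC less astrocytes -0.608, -19.4, 11.8 and 8.24 for Gria1 to Gria4 (exact adjusted p = 0.409 for the Gria1 share of the latter pair and 0.0625 for the others). Leaving out each mouse in turn gave members called of 2 to 4, 6 to 6, 3 to 4, 4 to 5, 4 to 5, 3 to 3, 1 to 1 and 0 to 0 in the 8 class contrasts in the order excitatory-inhibitory, excitatory-OPC, OPC-astrocyte, OPC-oligodendrocyte, OPC-endothelial, and astrocyte, oligodendrocyte and microglia against endothelial; 1 to 3 for interneurons against striatal-type cells and 2 to 3 for the excitatory clusters; and 0 to 1 for BCD/Ket less BCD/Sal in oligodendrocytes and for CORT/Sal less BCD/Sal, BCD/Ket less BCD/Sal and the difference of ketamine effects in endothelial cells. The share differences ranged from -7.39 to -5.70 (Gria1), 2.13 to 4.45 (Gria2), 5.42 to 6.825 (Gria3) and -2.625 to -1.83 (Gria4) between the neuron classes, from 10.8 to 11.95, -9.39 to -7.19 and -5.53 to -4.62 (Gria1, Gria2, Gria4) between excitatory neurons and OPC, and from -0.991 to -0.660, -21.3 to -19.9, 13.4 to 14.1 and 7.22 to 8.08 (Gria1 to Gria4) between OPC and astrocytes; with 5 mice the exact test cannot pass.

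RLE factors changed the genes called higher and lower from 935 and 285 to 397 and 605 (excitatory-inhibitory), from 1764 and 1875 to 2172 and 1486 (OPC-astrocyte), from 2780 and 1732 to 4067 and 1093 (OPC-oligodendrocyte), from 3106 and 2542 to 5082 and 1486 (OPC-endothelial), from 3363 and 2653 to 5136 and 1782 (astrocyte-endothelial) and from 2161 and 2739 to 2752 and 2212 (oligodendrocyte-endothelial). Depth limits Cacng8, Cacng3 in inhibitory neurons, and in the treatment contrasts the members of few UMIs in glia, though not Gria2 in astrocytes (SE 0.20, the smallest of any member). Class names rest on markers, 1 mouse gave most of the unnamed cluster, and most CORT/Sal contrasts could not be fitted.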
